A study of Mus musculus and Homo sapiens
Mus musculus with 14 samples.

Results

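The genes described here are 10 transcription factors known from amacrine cells, the inhibitory interneurons of the inner retina: Pax6, Tfap2a, Tfap2b, Tfap2c, Meis2, Barhl2, Neurod2, Neurod6, Nr4a2 and Tcf4. They were chosen by gene symbol, with earlier results of these data known. All 10 are listed among the 24460 genes of the retinal layer table and among the 18415 genes of the amacrine cell table. The filter on low counts passed 9 of the 10 in both tables, and Neurod6 failed it in both.

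In Light-Seq, RNA is copied to cDNA inside a fixed tissue section and barcodes are attached by light to the cDNA of chosen areas, so that molecules can be counted per area with unique molecular identifiers (UMIs). Every group came from untreated retina of wild-type (WT) CD1 IGS mice in the third postnatal week. In 4 sections of 1 animal, separate barcodes marked the outer nuclear layer (ONL) with its photoreceptors, the layer of bipolar cells (BCL), where horizontal cells and Müller glia also lie, and the layer of ganglion cells (GCL), which they share with displaced amacrine cells. In 5 further sections, stained for tyrosine hydroxylase (TH), the enzyme that starts dopamine synthesis, barcodes marked TH+ dopaminergic amacrine cells and TH- amacrine cells. Each TH+ library pooled the few TH+ cells found in its section, and the labels do not tie these sections to animals, although the methods speak of a single source animal. Each library is thus 1 group of cells from 1 section.

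Levels are given as CPM, a gene's UMIs divided by all UMIs of its library and multiplied by 1e6. The ONL libraries held 310228 to 801105 UMIs, the BCL libraries 193869 to 208437 and the GCL libraries 585655 to 785013. The TH- libraries held 134394 to 200344 UMIs and the TH+ libraries, the shallowest, 30317 to 87449. A level of 0 allows up to 3 UMIs, which is 3.74 to 9.67 CPM in an ONL library, 14.4 to 15.5 in a BCL library, 3.82 to 5.12 in a GCL library, 15 to 22.3 in a TH- library and 34.3 to 99.0 in a TH+ library. These limits, and the binomial intervals given further on, cover counting error only.

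The labels were compared with marker genes. Th, which encodes tyrosine hydroxylase, stood at 470, 423, 518, 303 and 660 CPM in the TH+ libraries of sections 1 to 5 and at 19.7, 11.6, 14.9, 49.9 and 14.1 CPM in the TH- libraries. Every TH+ library lay above every TH- library, and edgeR called 3 of 3 tested dopaminergic markers higher in TH+ cells. The 10 rod markers summed to 74070 ± 6719 CPM in the ONL (SD, n = 4), 17150 ± 3792 in the BCL and 6545 ± 1662 in the GCL. The 11 bipolar markers summed to 7284 ± 387 CPM in the BCL and 466 ± 68.3 in the GCL, and the 11 ganglion cell markers to 7177 ± 385 CPM in the GCL and 568 ± 106 in the BCL. The amacrine libraries also held markers of other cells. Rod markers summed to 18440 ± 5819 CPM in TH- cells (SD, n = 5) and 32040 ± 9957 in TH+ cells. Müller glia markers summed to 6545 ± 1014 and 4457 ± 674 CPM there, and bipolar markers to 1686 ± 838 and 1157 ± 348. The 11 amacrine markers that are not transcription factors summed to 739, 438, 404 and 622 CPM in the ONL libraries, 815, 892, 793 and 1127 in the BCL libraries and 3627, 3891, 3506 and 3961 in the GCL libraries. In the TH- libraries they summed to 5402 ± 1350 CPM (SD, n = 5) and in the TH+ libraries to 3963 ± 641, and none of the 11 was at 0 in any group. Calb2 made up much of the GCL sum, at 1729 CPM on average, against 383 in TH- cells. The markers did not all run 1 way. edgeR called 10 higher in the GCL than in the ONL, where it called 32.2% of all genes, and 1 lower. It called 9 higher in the GCL than in the BCL, where it called 20.4%, and 2 were not called.

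As background, amacrine cells arise from progenitors in which Pax6, a factor with a paired domain and a homeodomain, keeps the capacity to form many retinal cell types, and mature amacrine and ganglion cells keep Pax6. AP-2 factors, encoded by the Tfap2 genes, bind GC-rich palindromes as dimers and act in amacrine and horizontal cells, while Barhl2 and Meis2 are homeodomain factors of amacrine and ganglion cell subtypes. The basic helix-loop-helix factors of the NEUROD family bind DNA together with E proteins such as TCF4, and NR4A2 is an orphan nuclear receptor known for the control of Th in dopaminergic neurons of the brain.

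The windows from 250 bases before to 50 after the gene start were read for the AP-2 palindrome, since 3 of the members encode AP-2 factors. RefSeq gives 10 such windows for 8 members on build GRCm38.p6, and none for Tfap2c and Tcf4. The letters searched were GCCNNNGGC, which read the same on both strands, and 16.6% of all 32851 windows hold them. They occur in 2 of the 10 member windows, 1 match in the upstream window of Pax6 (chr2:105668646-105668945, + strand) and 2 in that of Nr4a2 (chr2:57123954-57124253, - strand). The window of Barhl2 (chr5:106458117-106458416, - strand) is shown with them as one without a match, from a gene that was high in the GCL together with Pax6. Capitals mark the matches, and each sequence reads 5′ to 3′ on the gene's strand.
Pax6: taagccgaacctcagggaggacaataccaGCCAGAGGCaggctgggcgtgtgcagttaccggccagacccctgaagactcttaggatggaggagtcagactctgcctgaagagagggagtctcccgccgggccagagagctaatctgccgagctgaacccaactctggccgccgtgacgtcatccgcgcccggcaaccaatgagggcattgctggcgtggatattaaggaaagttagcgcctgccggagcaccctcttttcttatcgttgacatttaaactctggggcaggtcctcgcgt
Nr4a2: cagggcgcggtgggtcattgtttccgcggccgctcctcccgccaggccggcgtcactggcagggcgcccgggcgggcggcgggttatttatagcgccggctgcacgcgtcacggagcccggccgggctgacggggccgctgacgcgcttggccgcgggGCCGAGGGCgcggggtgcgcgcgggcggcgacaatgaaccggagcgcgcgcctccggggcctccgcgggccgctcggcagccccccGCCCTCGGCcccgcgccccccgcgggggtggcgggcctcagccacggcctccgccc
Barhl2: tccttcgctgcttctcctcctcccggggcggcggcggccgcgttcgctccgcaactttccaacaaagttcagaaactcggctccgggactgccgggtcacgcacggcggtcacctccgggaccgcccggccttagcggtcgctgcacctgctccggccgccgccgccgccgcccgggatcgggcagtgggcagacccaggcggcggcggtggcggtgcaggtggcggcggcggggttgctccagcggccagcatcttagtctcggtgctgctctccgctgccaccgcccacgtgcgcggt
A match is a description and not a site: nothing here measured binding. The member windows were 53.1% GC at the median, and all windows 52.7%. Letters of other factors were searched on both strands: CAGATG, a NEUROD E-box found in 17.2% of all windows, and TGACAG, a MEIS element found in 19.2%, each occur once in the Neurod2 window. TGACAG occurs once more, in the second Pax6 window. TAATTA, a homeodomain core found in 5.29% of all windows, occurs once in 1 of the Tfap2a windows, and AAAGGTCA, an NR4A element found in 1.51%, occurs in none of the 10.

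Summed over the 10 members, the ONL libraries held 472, 360, 295 and 442 CPM, the BCL libraries 1099, 998, 1067 and 1271, and the GCL libraries 1117, 1109, 1167 and 1079. Every ONL library lay below every BCL and GCL library, while the BCL and GCL libraries overlapped. The amacrine libraries held more, 2538, 2766, 2195, 2835 and 2925 CPM in TH- cells and 1899, 2504, 1859, 2249 and 2375 in TH+ cells. The layers and the amacrine cells were barcoded in separate experiments, so cell group and experiment cannot be told apart and no test was made across them. In such pooled material fewer cells of a type and less RNA per cell cannot be told apart either.

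**Figure D1:**
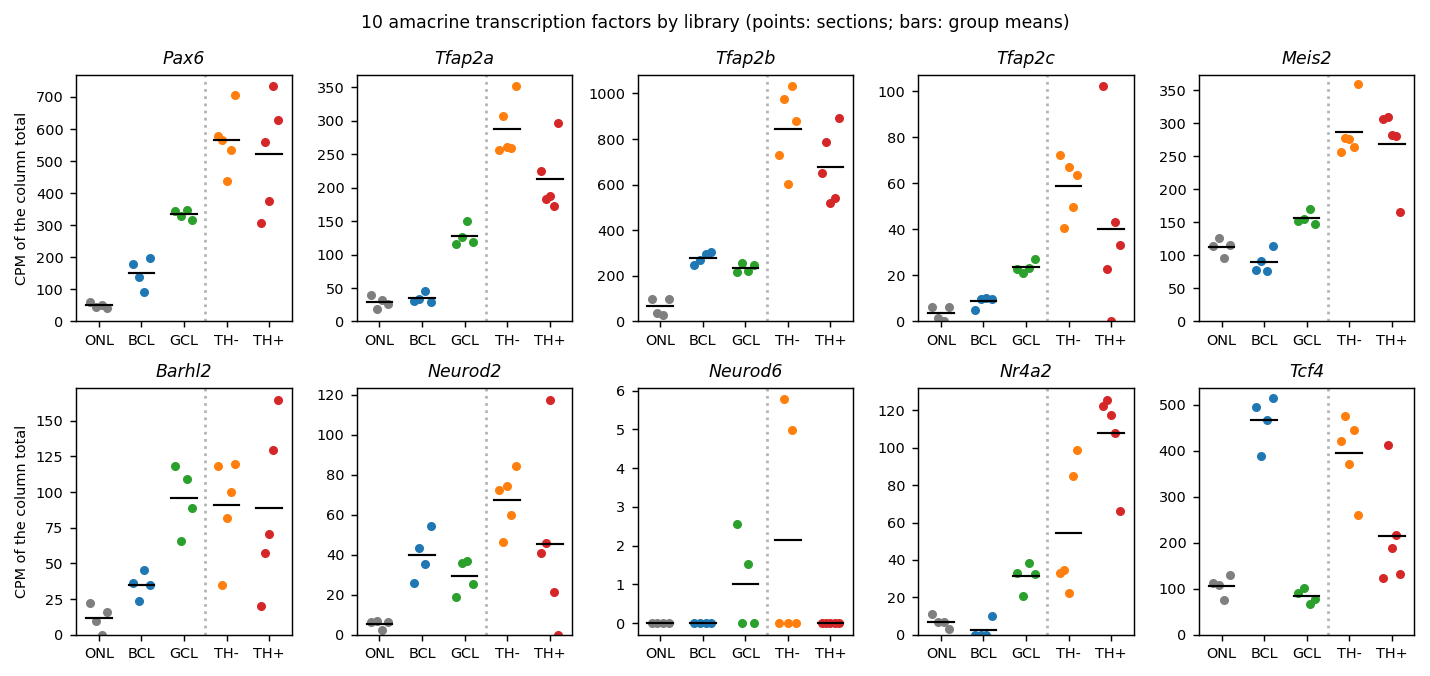
Level of each of the 10 members in every library, in CPM of the library total; points are sections, bars are group means, and the dotted line parts the layer experiment from the amacrine experiment. Most members are lowest in the ONL, Tcf4 is highest in the BCL among the layers (389 to 514 CPM), and Neurod6 stays at or below 5.79 CPM.

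Each pair of layers was compared to ask which of these factors mark one layer against another. The edgeR quasi-likelihood test, adjusted by Benjamini-Hochberg over all genes tested, called 4 of the 9 tested members higher in the BCL than in the ONL (Pax6, Tfap2b, Neurod2 and Tcf4), where it called 18.2% of 11324 genes in that direction. It called 1 member, Meis2, higher in the ONL, a direction in which 18.5% of all genes were called. For the GCL against the ONL it called 7 members higher in the GCL (Pax6, Tfap2a, Tfap2b, Tfap2c, Barhl2, Neurod2 and Nr4a2), with 32.2% of all genes, and 1 higher in the ONL, Tcf4, with 29.3%. For the GCL against the BCL it called 6 higher in the GCL (Pax6, Tfap2a, Tfap2c, Meis2, Barhl2 and Nr4a2), with 20.4% of all genes, and again 1, Tcf4, higher in the BCL, with 16.1%.

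The median log2 fold change of the 9 tested members was 1.06 for the BCL minus the ONL, 1.94 for the GCL minus the ONL and 1.30 for the GCL minus the BCL. The first is the value of Barhl2, which ran from 0.57 to 1.72 when 1 section was left out. Over all 11324 genes the medians were -0.09, -0.0041 and 0.02. Scaling by library totals in place of TMM, edgeR's trimmed mean of M-values, an alternative chosen after seeing the data, moved these medians of all genes to 0.25, 0.16 and -0.15. It raised the share of called genes that were higher in the BCL than in the ONL from 49.5% to 70.7%, and lowered the share higher in the GCL than in the BCL from 55.9% to 44.3%. Member calls of small size were touched by that shift, as given below for Meis2 and Tcf4. The p-values measure spread between sections of 1 animal, and between sections whose labels give no animal for the amacrine cells, so they make no statement on differences between animals.

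**Figure D2:**
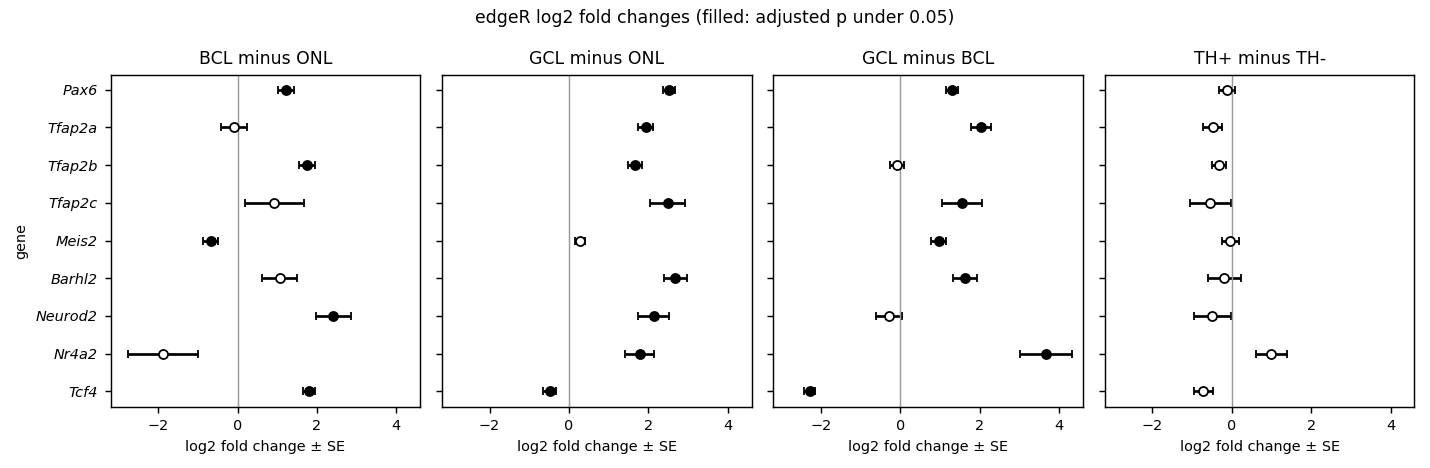
edgeR log2 fold change with its standard error for the 9 tested members in the 4 comparisons; filled points have an adjusted p under 0.05. Most filled points for the GCL lie to the right, Tcf4 lies to the left at -2.29 for the GCL minus the BCL, and no point is filled for TH+ minus TH-.

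Pax6 (ENSMUSG00000027168.22; GRCm39 chr2:105499234-105530952, + strand) stood at 61.2, 44.3, 52.5 and 41.9 CPM in the ONL libraries of sections 1 to 4, at 180, 139, 91.5 and 198 CPM in the BCL and at 345, 328, 347 and 316 CPM in the GCL. The 3 layers did not overlap, and the order ONL, BCL, GCL held in 4 of 4 sections. The GCL libraries lay close together, while the BCL libraries spread most, with section 3 the lowest. By edgeR the log2 fold change was 1.23 ± 0.21 (SE) for the BCL minus the ONL (adjusted p = 2.29e-06). It was 2.53 ± 0.15 for the GCL minus the ONL (adjusted p = 3.08e-21) and 1.30 ± 0.15 for the GCL minus the BCL (adjusted p = 4.88e-10). Beside these levels, the ganglion cell markers summed to 568 CPM in the BCL and 7177 in the GCL. The amacrine markers summed to 907 and 3746 CPM, of which Calb2 alone held 123 and 1729. The part of either set of markers in the Pax6 difference was not tested. On the opposite strand, exons of Elp4 overlap 21.1% of the annotated exon bases of Pax6, and the authors counted with the default settings of featureCounts, which do not use the strand.

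Of the AP-2 genes among the members, Tfap2b was the one not called between the BCL and the GCL. It stood at 98.6, 38.7, 29.7 and 96.7 CPM in the ONL libraries, at 248, 269, 295 and 306 in the BCL and at 218, 255, 221 and 246 in the GCL. ONL values were lowest and varied most, and the BCL and GCL ranges overlapped. By edgeR the log2 fold change was 1.75 ± 0.20 for the BCL minus the ONL (adjusted p = 2.73e-10; higher in 4 of 4 sections) and 1.66 ± 0.18 for the GCL minus the ONL (adjusted p = 4.6e-12; 4 of 4). For the GCL minus the BCL it was -0.09 ± 0.17 (adjusted p = 0.735; lower in 4 of 4 sections in CPM), and its sign turned to 0.03 without the filter on low counts. The ratio of summed CPM, GCL to BCL, was 0.837 with a counting interval of 0.717 to 0.979.

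Tfap2a, its paralogue, stood at 39.9, 18.0, 32.0 and 25.8 CPM in the ONL libraries, at 30.9, 33.6, 45.7 and 29.7 in the BCL and at 116, 126, 151 and 120 in the GCL. The ONL and BCL libraries overlapped, and every GCL library lay above both. In the edgeR fit the log2 fold change was 1.94 ± 0.19 for the GCL minus the ONL (adjusted p = 4.67e-13; 4 of 4 sections) and 2.03 ± 0.25 for the GCL minus the BCL (adjusted p = 1.41e-09; 4 of 4). For the BCL minus the ONL it was -0.09 ± 0.33 (adjusted p = 0.873), and it changed sign with the scaling, to 0.25 with library totals. Tfap2c was the rarest of the 3, with 8 UMIs over the ONL libraries, 7 over the BCL and 63 over the GCL. Its GCL libraries, at 22.9, 21.0, 23.1 and 27.3 CPM, all lay above the ONL libraries (0 to 6.45 CPM) and the BCL libraries (5.16 to 10.2 CPM). For Tfap2c the edgeR log2 fold change was 2.49 ± 0.45 for the GCL minus the ONL (adjusted p = 3.29e-06), or 3.22 without section 1, and 1.56 ± 0.51 for the GCL minus the BCL (adjusted p = 0.0116). Between the ONL and the BCL Tfap2c was not called (adjusted p = 0.357).

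A share within a set of genes does not depend on library scaling, so the balance of the AP-2 members was compared as well. Their paralogues Tfap2d and Tfap2e, with 74 and 10 UMIs in the GCL, are outside these shares. Of the UMIs of Tfap2a, Tfap2b and Tfap2c together, Tfap2b took 87.3%, 86.2%, 84.1% and 88.6% in the BCL libraries and 61.1%, 63.4%, 56.0% and 62.6% in the GCL libraries. The BCL and GCL shares did not overlap, and neither did their exact (Clopper-Pearson) 95% binomial intervals, whose lowest BCL bound was 73.3% and highest GCL bound 69.2%. Tfap2a took the opposite course, with 10.9%, 10.8%, 13% and 8.57% in the BCL and 32.5%, 31.3%, 38.1% and 30.4% in the GCL. In the ONL the Tfap2b share spread from 48.1% to 75.0% on 27 to 116 UMIs per library. The amacrine libraries lay between the BCL and the GCL, at 70.5% ± 4.85 in TH- cells (SD, n = 5) and 72.7% ± 4.53 in TH+ cells, a pair that overlapped. Tfap2c took 2.66% in the BCL, 6.11% in the GCL, 5.14% in TH- cells and 4.23% in TH+ cells on average. The TH+ mean rests on 10 UMIs, 5 of them from section 1, and without that section it was 2.68%.

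**Figure D3:**
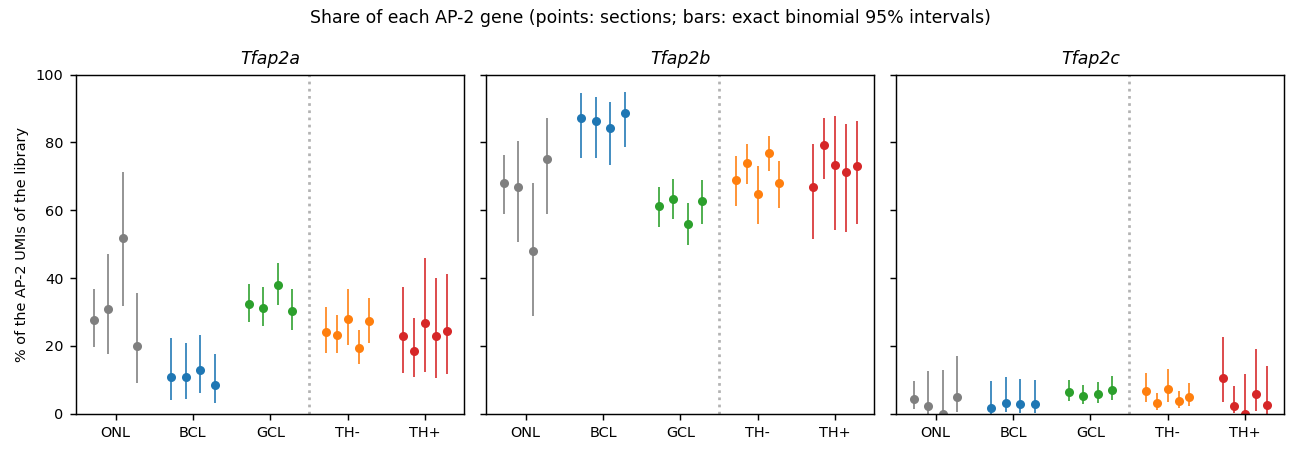
Shares of Tfap2a, Tfap2b and Tfap2c in the summed UMIs of these genes in a library, in percent. Points are sections and bars are exact binomial 95% intervals. The 4 BCL points for Tfap2b, from 84.1% to 88.6%, lie above all GCL points, from 56.0% to 63.4%.

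Markers of horizontal cells, which also use AP-2 factors, were highest in the BCL among the layers. Of 7 listed symbols for horizontal markers 6 are in the layer table, the other being an older symbol of Septin4, and the 6 summed to 629, 792, 1072 and 697 CPM in the BCL libraries, against 236, 192, 258 and 178 in the GCL and 99.9, 116, 73.0 and 96.7 in the ONL. In TH- and TH+ cells the 5 found in the amacrine table summed to 180 and 168 CPM on average. The most abundant was Septin4 (458 CPM in the BCL), none was at 0 in a layer, and edgeR called 6 of 6 higher in the BCL than in the ONL and 5 of 6 higher than in the GCL. Lhx1 and Onecut1, transcription factors of horizontal cells, had means of 53.9 and 36.0 CPM in the BCL and 2.29 and 8.86 in the GCL. The part of these cells in the AP-2 shares was not tested.

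Meis2, a TALE homeodomain factor that binds DNA with PBX partners, differed less between layers than most members. It stood at 114, 126, 95.9 and 116 CPM in the ONL libraries, at 77.4, 91.2, 76.2 and 114 in the BCL and at 152, 154, 171 and 147 in the GCL. Every GCL library lay above every ONL and BCL library, while the BCL fell below the ONL in 4 of 4 sections with overlapping ranges. The edgeR log2 fold change was 0.96 ± 0.18 for the GCL minus the BCL (adjusted p = 1.83e-05) and -0.68 ± 0.19 for the BCL minus the ONL (adjusted p = 0.00369). The second call was lost with library totals as the scale (-0.34, adjusted p = 0.183). For the GCL minus the ONL the value was 0.28 ± 0.13 (adjusted p = 0.0605). That comparison passed the threshold under 6 alternatives, with adjusted p of 0.00221 to 0.0407; 1 of them left out section 2 (0.38, adjusted p = 0.0407). Without section 3 the value was 0.17 (adjusted p = 0.367).

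Barhl2 (ENSMUSG00000034384.12), a BarH-like homeodomain factor, stood at 22.5, 9.68, 0 and 16.1 CPM in the ONL libraries, at 36.1, 24.0, 45.7 and 34.6 in the BCL and at 118, 65.9, 109 and 88.8 in the GCL. The 3 layers did not overlap. With edgeR the log2 fold change was 2.68 ± 0.28 for the GCL minus the ONL (adjusted p = 3.5e-12; 4 of 4 sections) and 1.62 ± 0.31 for the GCL minus the BCL (adjusted p = 1.79e-05; 4 of 4). For the BCL minus the ONL it was 1.06 ± 0.45 (adjusted p = 0.0587; 4 of 4), on 28 and 30 UMIs. Under 7 alternatives that difference was called, with adjusted p of 0.0114 to 0.0408. Among them were edgeR with the section as a block (1.09, adjusted p = 0.0338) and DESeq2 (adjusted p = 0.0279). Without section 1 the value was 1.72 (adjusted p = 0.0114) and without section 3 it was 0.57 (adjusted p = 0.382).

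Neurod2, a basic helix-loop-helix factor of neuronal differentiation, stood at 6.24, 6.92, 2.28 and 6.45 CPM in the ONL libraries, at 25.8, 43.2, 35.6 and 54.4 in the BCL and at 19.1, 36.0, 36.9 and 25.6 in the GCL. Every BCL and GCL library lay above every ONL library, and the BCL and GCL overlapped. For Neurod2 the edgeR log2 fold change was 2.42 ± 0.45 for the BCL minus the ONL (adjusted p = 1.43e-05) and 2.13 ± 0.38 for the GCL minus the ONL (adjusted p = 3e-06). For the GCL minus the BCL it was -0.29 ± 0.32 (adjusted p = 0.533). Neurod6, its close paralogue and a marker of an amacrine subtype that uses neither GABA nor glycine, was seen in only 5 UMIs over the 22 libraries, 3 in the GCL (2.55 and 1.54 CPM in sections 1 and 3) and 2 in TH- cells (5.79 and 4.99 CPM in sections 2 and 4). The other groups held 0 UMIs, which allows up to 1.32 CPM over the ONL, 3.74 over the BCL and 11.7 over the TH+ libraries. With UMIs in only 2 of the 8 libraries of a pair of layers, an exact permutation test can give no p under that of these counts (p = 0.429 for the GCL against either other layer), so it says nothing on Neurod6. Exons of Gm3279 on the opposite strand overlap 28.5% of the annotated exon bases of Neurod6.

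Nr4a2 was called higher in the GCL than in both other layers. It stood at 11.2, 6.92, 6.85 and 3.22 CPM in the ONL libraries, at 0, 0, 0 and 9.89 in the BCL and at 33.1, 21.0, 38.4 and 32.4 in the GCL. Every GCL library lay above every other layer library, and the 2 UMIs of the BCL came from section 4 alone. Summed over libraries, the GCL held 84 UMIs against those 2, a ratio of 12.5 in CPM with a 95% counting interval of 3.36 to 105. The edgeR log2 fold change was 1.78 ± 0.36 for the GCL minus the ONL (adjusted p = 2.48e-05; 4 of 4 sections) and 3.66 ± 0.66 for the GCL minus the BCL (adjusted p = 8.24e-06; 4 of 4). Without section 4 the BCL had 0 UMIs, the fitted value for the GCL minus the BCL was 6.97, and its size then depends on the fit's prior count. The ONL and the BCL were not told apart (-1.88 ± 0.88, adjusted p = 0.0926), and a 0 in a BCL library allows up to 14.4 to 15.5 CPM, above every ONL value. Without section 4 that comparison passed the threshold (-5.34, adjusted p = 0.00873), but against a count of 0, and without section 1 it gave -1.15 (adjusted p = 0.423).

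Tcf4, the E protein that pairs with NEUROD and other helix-loop-helix factors, was the only member called higher in the BCL than in both other layers. It stood at 112, 108, 75.3 and 129 CPM in the ONL libraries, at 495, 389, 468 and 514 in the BCL and at 90.4, 102, 67.6 and 76.8 in the GCL. Every BCL library lay above every other layer library, while the ONL and GCL ranges overlapped. The edgeR log2 fold change was 1.80 ± 0.15 for the BCL minus the ONL (adjusted p = 2.27e-15) and -2.29 ± 0.15 for the GCL minus the BCL (adjusted p = 3.91e-19), each in 4 of 4 sections. For the GCL minus the ONL it was -0.49 ± 0.16 (adjusted p = 0.00645; lower in 4 of 4 sections). That call was lost without section 4 (-0.40, adjusted p = 0.0507) and with library totals (-0.32, adjusted p = 0.078). Markers of Müller glia and of bipolar cells were also highest in the BCL, with sums of 8296 ± 409 CPM (SD, n = 4; 9 markers, most abundant Glul) and 7284 ± 387 (11 markers), and their part in the Tcf4 level was not tested.

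TH+ and TH- amacrine cells were compared to ask which of the factors set dopaminergic cells apart. Both groups came from the same sections, but the main fit did not pair the libraries of a section. The edgeR test called 0 of the 9 tested members, against 0.747% of 6021 genes called higher in TH+ cells and 0.083% called higher in TH- cells, 50 genes in all. At an unadjusted p under 0.05 there were 3 members, Tcf4, Nr4a2 and Tfap2a, and DESeq2 called 0. No share of all genes at that level stands beside this or later counts of its kind, which are descriptions only. With the section as a block edgeR called 1 member, Tcf4, and 148 genes, of which 64.9% were higher in TH+ cells in place of 90.0%. Without the low-count filter it also called 1 member, again Tcf4, and 51.5% of its called genes were higher in TH+ cells. The median log2 fold change was -0.33 over the members and -0.05 over all genes tested.

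Nr4a2 stood at 122, 126, 118, 108 and 66.0 CPM in the TH+ libraries of sections 1 to 5 and at 32.9, 34.7, 22.3, 84.8 and 98.7 CPM in the TH- libraries. The TH+ library was higher in 4 of 5 sections, section 5 ran the other way, and the ranges overlapped. The counts behind the TH+ values were small, 2 to 11 UMIs per library. The edgeR log2 fold change was 0.997 ± 0.40 (unadjusted p = 0.015, adjusted p = 0.369), and the block on section gave 1.09 (adjusted p = 0.129). Summed over libraries, the ratio of TH+ to TH- was 2.02 with a counting interval of 1.22 to 3.30.

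Tcf4 stood at 122, 412, 188, 216 and 132 CPM in the TH+ libraries and at 421, 474, 372, 444 and 261 in the TH- libraries. It was lower in the TH+ library in 5 of 5 sections, and the ranges overlapped through section 2, where TH+ cells reached 412 CPM. By edgeR its log2 fold change was -0.72 ± 0.24 (unadjusted p = 0.00452, adjusted p = 0.206). With the section as a block it was -0.78 (adjusted p = 0.0104) and without section 2 it was -1.19 (adjusted p = 0.00585). Over all alternatives the adjusted p ran from 0.00585 to 0.606. Of the summed markers, those of Müller glia were lower in TH+ libraries (3716, 5180, 4870, 4757 and 3760 CPM) than in TH- libraries (5187, 6983, 7880, 6664 and 6012 CPM) in 5 of 5 sections, with 0 of 9 called by edgeR, 5 at an unadjusted p under 0.05, 0 by DESeq2 and 3 with the section as a block, and their part in the Tcf4 level was not tested.

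**Figure D4:**
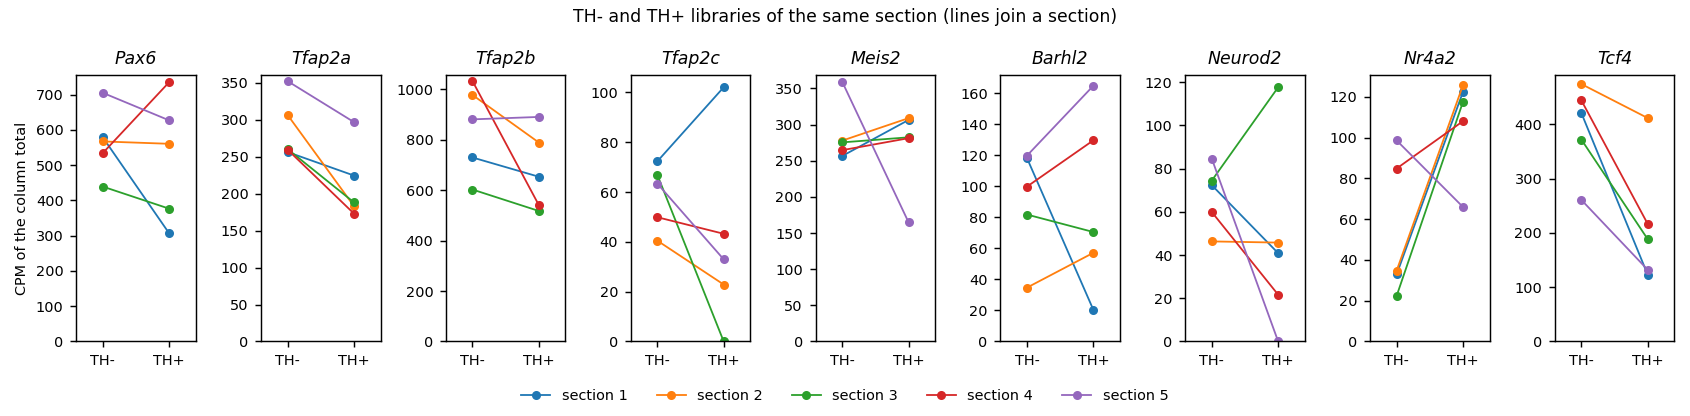
Level of the 9 tested members in the TH- and the TH+ library of each of the 5 amacrine sections, in CPM; a line joins the libraries of a section. All 5 lines fall for Tcf4 and for Tfap2a, while 4 of 5 rise for Nr4a2.

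Tfap2a was lower in the TH+ library in 5 of 5 sections, at 225, 183, 188, 173 and 297 CPM against 256, 307, 260, 260 and 352 CPM in TH- cells. The ranges overlapped through section 5, whose TH+ value exceeded 3 of the TH- values. Its edgeR log2 fold change was -0.48 ± 0.23 (unadjusted p = 0.0439, adjusted p = 0.54). Pax6 averaged 521 ± 177 CPM in TH+ cells (SD, n = 5) and 565 ± 95.6 in TH- cells, and Tfap2b 678 ± 160 and 845 ± 178. Meis2 averaged 269 ± 59.4 and 287 ± 41.6 CPM, but was higher in TH+ cells in 4 of 5 sections, and without section 5 its log2 fold change turned from -0.04 to 0.15. Barhl2 averaged 88.6 ± 58.1 and 90.9 ± 35.0, Neurod2 45.2 ± 44.3 and 67.5 ± 14.8, and Tfap2c 40.2 ± 38.1 and 58.6 ± 13.1. The TH+ mean of Neurod2 leaned on section 3 (118 CPM, against 0 to 45.7 in the others). That of Tfap2c leaned on section 1 (102 CPM, against 0 to 43.3 in the others). None of these 6 members reached an unadjusted p under 0.05 by edgeR. In TH+ cells Tfap2b rested on 175 UMIs, Pax6 on 133 and Meis2 on 72, and Barhl2 on 20, Neurod2 on 12 and Tfap2c on 10. Summed rod markers stood at 30590, 15230, 38110, 38820 and 37440 CPM in the TH+ libraries and at 22200, 8794, 21560, 22540 and 17110 in the TH- libraries, higher in 5 of 5 sections with 4 of 10 called by edgeR (10 at an unadjusted p under 0.05), 2 by DESeq2 and 9 with the section as a block, and their part in the members' levels was not tested.

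Between genes, levels were compared per kilobase of counted exon, as CPM per kilobase. That length joins all annotated exons of a gene, and a single transcript can be shorter. Genes with many alternative exons are thus placed lower, and the ranks depend on this divisor. Tcf4 was divided by 27382 bases and Tfap2b by 6338. In CPM without that division Tcf4 (466) stood above Tfap2b (279) in the BCL. Tfap2b led in the ONL (10.4 ± 5.81, SD, n = 4), followed by Meis2 (9.37 ± 1.04), which lay within its spread, and it led in the BCL (44.1 ± 4.17) ahead of Tcf4 (17.0 ± 2.02), Barhl2 (15.2 ± 3.85) and Pax6 (13 ± 4.05). In the GCL Barhl2 led at 41.3 ± 10.1, and Tfap2b (37.1 ± 2.87) lay within its spread, with Pax6 (28.6 ± 1.27) and Tfap2a (26.1 ± 3.19) next. In TH- cells Tfap2b (133 ± 28.0, SD, n = 5) was followed by Tfap2a (58.6 ± 8.57), Pax6 (48.3 ± 8.18) and Barhl2 (39.3 ± 15.1), of which Pax6 lay within the spread of Barhl2. In TH+ cells the order began with Tfap2b (107 ± 25.3), Pax6 (44.6 ± 15.2), Tfap2a (43.5 ± 10.3), Barhl2 (38.3 ± 25.1) and Nr4a2 (26.6 ± 6.02). Of these, Pax6, Tfap2a and Nr4a2 lay within the spread of Barhl2. In TH- cells Nr4a2 (13.5 ± 8.51) had rank 9 of 10, with Tcf4 (14.4 ± 3.05), Tfap2c (15.9 ± 3.56) and Neurod2 (21.5 ± 4.70) within its spread. In TH+ cells it had rank 5, with Meis2 (22.3 ± 4.93) within its spread, and Neurod6 was last in all 5 groups.

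Profiles over the 5 groups were compared by the Euclidean distance of centred log2 mean CPM, a description over 5 points with no test. Neurod6 was left out. Among the other members the closest pair was Pax6 and Tfap2c (distance 0.56), and the farthest was Nr4a2 and Tcf4 (4.86). The Nr4a2 profile includes a BCL mean of 2.47 CPM that rests on 2 UMIs. Among 9279 other genes, those nearest to each of these members were Dlgap1 for Pax6 (0.21), Glra2 for Tfap2a (0.40), Ptprt for Tfap2b (0.36) and Insyn2b for Tfap2c (0.16). The nearest to Meis2 was Lta4h (0.30), to Barhl2 Kif26b (0.11), to Neurod2 St6gal2 (0.13), to Nr4a2 C1ql2 (0.33) and to Tcf4 Acsl3 (0.32). C1ql2 averaged 14.7 CPM in the ONL, 5.01 in the BCL, 54.5 in the GCL, 125 in TH- cells and 194 in TH+ cells. It was picked for its closeness to Nr4a2 over these same groups, so the order it shares with Nr4a2 is no separate result. Acsl3 averaged 73.3, 414, 73.6, 286 and 169 CPM in the same groups.

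Paralogues of the members and their partners or inhibitors formed a list of 22 genes, of which 19 were tested in the layers. edgeR called 6 higher in the BCL (18.2% of all genes tested) and 6 in the ONL (18.5%) between those layers. It called 8 higher in the GCL (32.2%) and 7 in the ONL (29.3%), and 5 higher in the GCL (20.4%) and 5 in the BCL (16.1%). The median log2 fold changes of the list were 0.14, 0.32 and 0.17, beside -0.09, -0.0041 and 0.02 over all genes. Within the NEUROD family, Neurod4 was high where Tcf4 was, at 949 ± 84.6 CPM in the BCL, 57.6 ± 18.7 in the ONL and 32.2 ± 8.70 in the GCL (SD, n = 4), with a log2 fold change of -4.71 ± 0.16 for the GCL minus the BCL (edgeR adjusted p = 2.79e-30). Neurod1, a photoreceptor and amacrine factor, was highest in the ONL, at 1203 ± 77.9 CPM, and its log2 fold change for the GCL minus the ONL was -3.40 ± 0.13 (edgeR adjusted p = 8.08e-29). In the AP-2 family, Tfap2d averaged 27.8 ± 3.85 CPM in the GCL, 1.74 in the ONL and 1.29 in the BCL, on 74, 4 and 1 UMIs. Among partners of Tcf4, the E protein gene Tcf12 fell by 1.29 ± 0.20 on the log2 scale from the BCL to the GCL (edgeR adjusted p = 2.3e-07). The MEIS partner Pbx3 was higher in the ONL than in the BCL (-1.91 ± 0.21 for the BCL minus the ONL, edgeR adjusted p = 4.82e-11), as was Meis1 (-0.94 ± 0.21, adjusted p = 0.00019). Of the 13 tested in amacrine cells edgeR called 0, with 1 at an unadjusted p under 0.05, 0 by DESeq2 and 1 with the section as a block.

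Other transcription factors known in amacrine cells, 19 listed genes of which 17 are in the layer table and 14 were tested there, set the members in context. edgeR called 10 higher in the BCL (18.2% of all genes tested) and 0 in the ONL (18.5%), and 12 higher in the GCL (32.2%) and 0 in the ONL (29.3%). Between the GCL and the BCL it called 5 higher in the GCL (20.4%) and 6 in the BCL (16.1%). Like Tcf4, Prox1 and Nfia were highest in the BCL, at 1697 ± 141 and 426 ± 37.4 CPM against 108 ± 20.9 and 106 ± 7.88 in the GCL (SD, n = 4). Their log2 fold changes for the GCL minus the BCL were -3.81 ± 0.15 and -1.85 ± 0.14 (edgeR adjusted p = 2.34e-28 and 1.11e-16). Among the layers the BCL also held the highest sums of Müller glia markers (8296 CPM) and bipolar markers (7284 CPM). Amacrine markers summed to 907 CPM there and 3746 in the GCL. The part of other cell types in the Prox1 and Nfia levels was not tested. Like Barhl2 and Nr4a2, Ebf1 and Ebf3 were higher in the GCL than in the other 2 layers, at 192 ± 36.1 and 219 ± 30.0 CPM. Ebf3 rose by 3.04 ± 0.24 on the log2 scale from the BCL to the GCL (edgeR adjusted p = 1.16e-15). Of the 11 tested in amacrine cells edgeR called 0, with 4 at an unadjusted p under 0.05, 0 by DESeq2 and 1 with the section as a block.

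By position, 4 of the 10 members lie on mouse chromosome 2 (Pax6, Tfap2c, Meis2 and Nr4a2), and the other 6 each lie on a chromosome of their own (1, 5, 6, 11, 13 and 18). The gene spans on GRCm39 run from 3520 bases for Neurod6 to 345724 for Tcf4, and the counted exon lengths from 2150 to 27382 bases for the same genes. Exons of 7 members overlap exons of other annotated genes, in each case on the opposite strand. Apart from the overlaps of Pax6 and Neurod6 given above, the largest was 7.75% of the annotated exon bases of Tfap2a.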

How the data were processed

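Deposited tables of unique molecular identifier (UMI) counts per gene were used: 12 layer libraries (3 layers in 4 sections of 1 animal) and 10 amacrine libraries (2 groups in 5 sections). Per the labels, the authors made the counts by aligning reads with STAR 2.7.9a, discarding reads with several alignments, assigning exons with featureCounts and collapsing UMIs with UMI-tools 1.1.1 (SAMtools 1.9 for sorting), leaving out 2 ribosomal RNA genes. The 2 tables hold 0 other columns of per-sample values. Exon lengths per gene, deposited with the counts of the cultured cells, served to compare levels between genes. CPM of the library total were computed here.

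Differences were tested with edgeR 4.0.16 in R 4.3.3: filterByExpr with min.count 3 and min.total.count 10, TMM scaling, quasi-likelihood F-tests and Benjamini-Hochberg adjustment over all genes tested, with calls at an adjusted p under 0.05. Standard errors are the absolute log2 fold change divided by the square root of F. One fit covered the 3 layers (11324 genes, common biological coefficient of variation 9.165%) and another the amacrine groups (6021 genes, 16.05%). Neurod6, left out by the filter, was compared by exact permutation of libraries, which its few counts leave uninformative. Python 3.11.15 with numpy 2.4.6, pandas 2.3.3, scipy 1.17.1 and matplotlib 3.10.9 computed the rest. The steps were tested on simulated data.

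Libraries with 1 section number come from the same section. Their residuals correlated at 0.012 to 0.049 in the layers (12 pairs, 0 over 0.1) and at 0.029 to 0.257 in amacrine cells (5 pairs, 2 over 0.1), against -0.061 to 0.043 and -0.117 to 0.042 between sections. A chi-square per degree of freedom between replicates, 1.15 to 2.91, measures spread beyond counting error.

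The members and the marker and factor lists were chosen with earlier results of these data known. The lists were paralogues and partners of the members, other amacrine transcription factors, and markers of amacrine, dopaminergic, ganglion, bipolar, horizontal, Müller, rod, cone, pigment epithelium, endothelial, microglial and red blood cells. Genes named are all members, up to 6 per factor list and comparison by smallest adjusted p, and, of the 2 nearest genes of a member by profile among genes with a mean of at least 10 CPM, the nearer. Of some marker lists the most abundant gene in a group is named, and Lhx1 and Onecut1 were chosen after their values were seen. Alternatives, set before the data were examined except the last, were DESeq2 1.42.0, its size factors in edgeR, no filter, edgeR's default filter, a block on section, totals without mitochondrially encoded genes, omission of each section, a fit on 2 layers only, and library totals in place of TMM.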

Additional observations from a re-analysis of the deposited data

Results flagged for a closer look

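In 7 of 121 groups of libraries 1 library lay far from the others by Dixon's gap test, which chance gives in about 1 in 20 groups. In the BCL, Tfap2c stood at 5.158 CPM in section 1 and at 9.595 to 10.16 CPM in the other sections, and Nr4a2 at 9.888 CPM in section 4 and 0 in the others. In the ONL, Neurod2 stood at 2.283 CPM in section 3 and at 6.241 to 6.917 CPM in the others. In each case the value that stood apart rests on 1 or 2 UMIs.

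Section 5 of the amacrine experiment stood apart for Meis2 in both groups. In TH- cells Meis2 was 359.4 CPM there and 256.4 to 277.7 CPM in the other sections, and in TH+ cells it was 164.9 CPM there and 281.1 to 308.8 CPM in the others. The summed microglial markers stood at 16.12 CPM in section 4 of the ONL, against 3.745 to 4.566 CPM in the others, and at 22.87 CPM in section 2 of the TH+ cells, against 0 in the others.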

How the results depend on the processing

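Of 428 log2 fold changes of members under the alternatives, 397 kept their direction and their side of the threshold, 17 passed the threshold where they had not, 3 no longer passed it and 11 changed sign. No value that changed sign had been called. For Tfap2a in the BCL minus the ONL the sign turned with DESeq2 (0.01554), its size factors (0.00858), the 2 layers alone (0.0344) and library totals, an alternative chosen after seeing the data (0.2524), and leaving out 1 section gave -0.2838 to 0.2644. For Tfap2b in the GCL minus the BCL it turned without the filter (0.02662). For Meis2 in TH+ minus TH- cells it turned with size factors (0.002615) and with the default filter (0.02373), and leaving out 1 section gave -0.1308 to 0.1475. Leaving out 1 section also gave -0.3284 to 0.00485 for Pax6 and -0.3901 to 0.1459 for Barhl2 in TH+ minus TH- cells. The cause was not tested.

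Members called between TH+ and TH- cells went from 0 to 1 without the filter, to 1 with the section as a block, and to 0 to 1 when 1 section was left out, with Tcf4 as the member each time. Genes called there went from 50 to 148 with the block, which held all 50, and to 29 to 73 when 1 section was left out; 29 was without section 3 and 73 without section 2. The cause was not tested. The other counts of genes and of members (45 of 48 each) stayed within 1.5 times. With the section as a block, edgeR called 4139, 6924 and 4131 genes in the layer comparisons (BCL minus ONL, GCL minus ONL, GCL minus BCL), against 4152, 6966 and 4136.

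Leaving mitochondrially encoded genes out of the totals moved 3 of 50 mean levels by more than 1 SD, all in the GCL: Pax6 to 367.4, Tfap2b to 258.3 and Meis2 to 171.4 CPM. With 1 section left out, the mean Tfap2b share was 85.83% to 87.33% in the BCL and 59.9% to 62.37% in the GCL. The mean Tfap2c share in TH+ cells then ran from 2.679% to 5.283%. The TH+ libraries were the shallowest, with 72 to 219 UMIs of the members.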

Other observations

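The series also holds 3 wells in which mouse 3T3 fibroblasts and human HEK cells were cultured together. The mouse genes under the 3T3 barcode held 135565, 206187 and 199128 UMIs. Tcf4 stood there at 206.5, 242.5 and 190.8 CPM, Tfap2a at 44.26, 24.25 and 40.18 CPM and Meis2 at 14.75, 48.5 and 45.2 CPM. Nr4a2 stood at 7.377, 9.7 and 0 CPM and Pax6 at 0, 0 and 5.022 CPM. Tfap2b, Tfap2c, Barhl2, Neurod2 and Neurod6 were at 0, which allows up to 22.1, 14.5 and 15.1 CPM.

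For the remaining marker lists, edgeR called 6 of 7 cone markers higher in the ONL than in the BCL and 7 of 7 than in the GCL, and 2 of 2 tested pigment epithelium markers higher in the ONL than in either. Higher in the GCL than in the ONL were 2 of 2 tested endothelial, 4 of 4 microglial and 1 of 1 tested red blood cell markers, the last not called by DESeq2. The red blood cell markers summed to 1.274 to 97.33 CPM in the GCL libraries.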
